A study of Danio rerio with 2 samples.

Results

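Voltage-gated ion channels are membrane proteins whose pore opens when the voltage across the membrane changes, and they set the excitability of neurons, sensory cells and muscle. Pore-forming alpha subunits select potassium, calcium or sodium, and auxiliary subunits tune how the pore opens and how much of it reaches the membrane. Photoreceptors do not fire ordinary spikes, and their transmitter release depends on an L-type calcium channel at the ribbon synapse, while their resting current depends on a potassium channel that carries kcnv2 subunits. The genes described here were chosen by name, as table entries whose symbol starts with kcn, cacn or scn and a digit, and whose level reached 1 FPKM in either library. FPKM are fragments on a gene scaled by how long the transcript is and by how many fragments the library holds. Of 33733 genes in the table, 199 matched by name and 148 of them passed the floor, as 95 potassium, 42 calcium and 11 sodium channel genes.

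The data are 2 libraries of whole zebrafish larvae of the AB/TL strain at 5 days post fertilisation. The library of lri25 homozygous mutants and the library of their wild-type clutchmates were each made from 20 pooled larvae, and the gene that lri25 affects is not named in the labels used here. The table names its 2 samples HKWT and HKMT, which were matched to the wild-type and mutant labels by their WT and MT endings, and the direction of every difference rests on that match. With 1 library per genotype there is no replicate spread, no test was run, and every difference describes these pools. The sources used here do not give the total number of fragments. Of 510 genes with few fragments, 206 had a mutant to wild-type ratio near 0.765. That is the ratio 1 fragment in each library would give if the mutant library was 1.31 times deeper. This depth is an estimate that rests on part of those genes. In whole larvae, fewer cells of a type and less RNA per cell cannot be told apart.

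The name rule is broader than the label of voltage-gated channels. Of the 148 genes, 58 encode pore-forming subunits gated by voltage, counting the voltage- and calcium-gated BK channels and KCNU1. Another 42 encode potassium channel pores that are not opened by voltage, which are the inward rectifiers (kcnj), the leak channels with paired pore domains (kcnk), the calcium-activated SK channels (kcnn) and the sodium-activated kcnt1. The remaining 48 encode auxiliary subunits. Median differences were alike in the 3 classes, at -0.36 for voltage-gated pores, -0.44 for the other pores and -0.36 for auxiliary subunits, on the scale of log2((mutant FPKM + 1)/(wild-type FPKM + 1)) used for every difference below. A gene is called at least 2-fold apart where this difference is 1 or more in size, while a fold given for a single gene is its plain FPKM ratio. Where 2 FPKM values are given for a gene, the wild-type library comes first and the mutant library second.

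Channel genes were expressed at low levels, with medians of 3.12 and 1.77 FPKM, against 6.49 and 6.26 FPKM over the 20256 genes that passed the same floor. The highest values were 21.1 and 33.9 FPKM, and 19 of the 148 genes were at 10 FPKM or more in at least 1 library. Summed over the 148 genes, levels were 671 and 498 FPKM. Of these genes, 25 were lower by at least 2-fold in the mutants, 16.9% of them, where 7.12% of all genes compared were that much lower. Another 6, or 4.05%, were at least 2-fold higher, where 6.08% of all genes were. In all, 107 of the 148 lay below 0, with a median difference of -0.38 and quartiles of -0.71 and 0.02. Over all genes compared the median was -0.01, the quartiles were -0.37 and 0.33, and 51.0% of genes lay below 0.

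**Figure D1:**
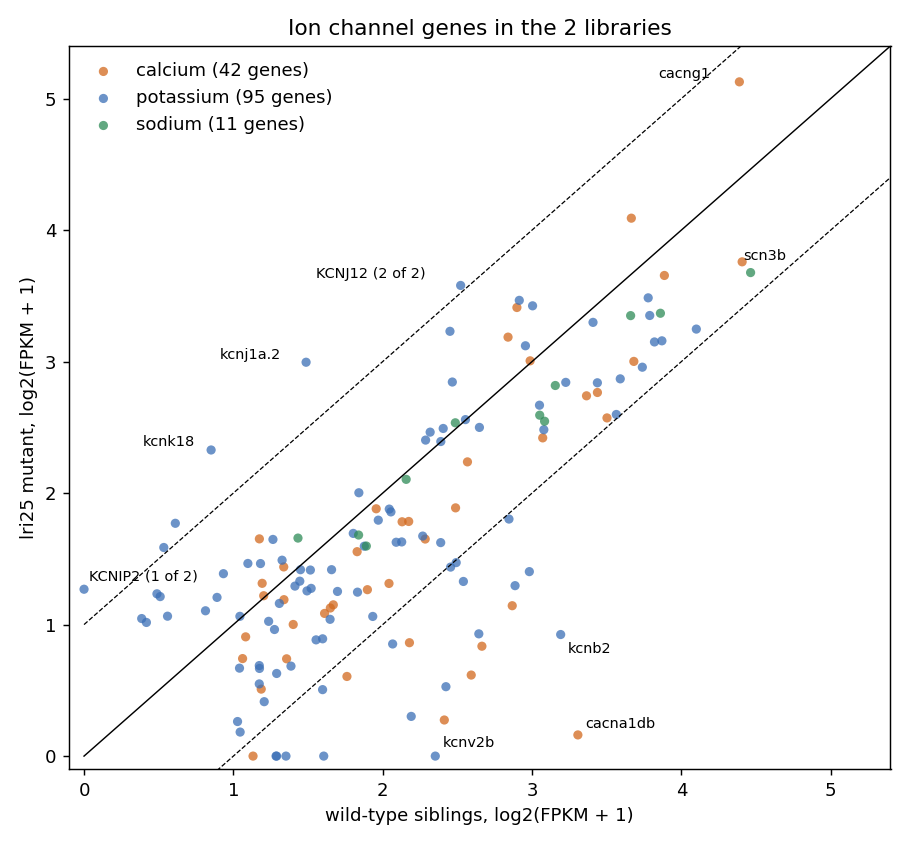
Each point is 1 ion channel gene, with log2(FPKM + 1) in the wild-type library on the horizontal axis and in the mutant library on the vertical axis, and colour gives the ion. The solid line marks equal levels and the dashed lines a 2-fold difference, with 25 genes at or below the lower dashed line and 6 at or above the upper one.

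The floor itself fixes part of this picture. There were 34 genes that passed it only through the wild type and 12 only through the mutant, and those had to lie on that side. Of the 34, 18 were lower by at least 2-fold, or 52.9%, near the 51.2% of the 1465 such genes in the whole table. Of the 12, 4 were higher by as much, or 33.3%, against 50.7% of 1281 such genes. In the 102 genes that passed it in both, 73 lay below 0, 7 were lower by at least 2-fold and 2 were higher by as much, 6.86% and 1.96% of them. The same shares in the 17510 genes of the whole table that did so were 3.95% and 3.33%. By the larger of the 2 values, 16 of 100 channel genes between 1 and 5 FPKM were lower by at least 2-fold, against 9.62% of all genes in that range. Between 5 and 35 FPKM it was 9 of 48, or 18.8%, against 5.68%.

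Several of the largest differences came from channels of the photoreceptor and its synapse. The retinal list, written from textbook knowledge, held 8 of the genes, and its median difference was -1.86. Of the 8, 5 were lower by at least 2-fold and 0 higher by as much, against 7.12% and 6.08% of all genes compared. All 5 passed the floor through the wild type only, so they could lie only below 0. Of all 1465 genes that passed in that way, 51.2% were lower by at least 2-fold. The list's count and median are thus a description of these values. Both cacna1f copies, the L-type alpha genes of the retinal list, were lower. CACNA1F (1 of 2), listed as cacna1fa in a table of zebrafish symbols (ENSDARG00000010933, chromosome 8, 46671341 to 46737036 in build Zv9), was at 4.32 and 0.210 FPKM. The other copy, cacna1f (ENSDARG00000023683, chromosome 8, 23712661 to 23779257), was at 5.34 and 0.784 FPKM, 6.81-fold lower. Their alpha2delta partner cacna2d4b (chromosome 25, 19513809 to 19580551), an extracellular subunit that helps the channel reach the membrane, was at 5.03 and 0.533 FPKM at a locus shared with LRTM2 (2 of 2). Its duplicate cacna2d4a missed the floor narrowly, at 0.997 and 0.157 FPKM. All 4 genes were thus below 1 FPKM in the mutant library.

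The modifier subunits encoded by kcnv2a and kcnv2b form no channel alone and join Kv2 subunits in photoreceptors. The level of kcnv2a (ENSDARG00000076644, chromosome 10, 15339385 to 15342725) was 4.36 and 0.442 FPKM, 9.88-fold lower. The other copy, kcnv2b (ENSDARG00000062906, chromosome 5, 9471688 to 9483668), was at 4.11 FPKM in wild-type larvae and listed at 0 in the mutants. In the authors' deposited table, kcnv2b was the single one of these genes called as different, with a q-value of 0.0133 that compares the 2 libraries and not the genotypes. That table tested 66 of the 148 genes and called 68 of the 14613 genes it tested, or 0.465%. A Kv2 subunit, kcnb2 (chromosome 2, 29859811 to 29892301), was at 8.14 and 0.898 FPKM, 9.06-fold lower, while its copy KCNB2 (2 of 2) was at 1.87 and 1.42 FPKM. Both kcnv2 copies and kcnb2 thus stood below 1 FPKM in the mutant, and the other kcnb2 copy did not.

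The retinal list also held inward rectifier genes, and these were all within 2-fold. KCNJ10A, an inward rectifier of glia that includes the Mueller cells of the retina, was at 3.37 and 2.09 FPKM. Its copy KCNJ10B, which was not in the retinal list, was at 5.25 and 0.905 FPKM, 5.80-fold lower. The channel gene kcnj13, which is expressed in the pigment epithelium of the mammalian retina and is needed for body stripes in zebrafish, has 2 entries at 1 locus, at 4.30 and 4.62 FPKM and at 0.336 and 1.02 FPKM. The first kcnj13 entry was not lower in the mutant. The second passed the floor through the mutant only, so it could lie only above 0.

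The gene with the largest difference of all 148 was cacna1db (ENSDARG00000037904, chromosome 8, 55564717 to 55584308), an L-type alpha subunit at 8.90 and 0.118 FPKM, 75.4-fold lower. That mutant value is the lowest above 0 of any of these genes in that library, so the ratio rests on very few fragments. Another entry with the symbol cacna1db, on a contig with no chromosome, was listed at 0 in both libraries. Its duplicate cacna1da, which carries the calcium current of hair cells in zebrafish, was at 3.12 and 1.48 FPKM. Of the 7 L-type alpha genes, cacna1db and both cacna1f copies were at least 2-fold lower, and the family spanned -3.15 to 0.35. The cardiac and neuronal gene cacna1c was at 2.05 and 1.12 FPKM, and the muscle genes cacna1sa and cacna1sb were at 1.53 and 1.28 FPKM and at 6.16 and 8.10 FPKM.

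Marker genes of the tissues differed along with some of these lists, and their part in the result was not tested. Photoreceptor markers had 19 entries at 1 FPKM or more, all lower by at least 2-fold, with summed levels of 7130 and 262 FPKM, 27.2-fold lower. One further entry of that list was listed at 0 in both libraries. Summed over its 9 table entries, the retinal channel list was at 32.2 and 9.86 FPKM, 3.26-fold lower. Neuron markers summed to 1095 and 753 FPKM, with 14 of 16 below 0 and gap43 listed at 0 in both libraries. These markers were uneven. Of the 16, snap25b, sypb and syt1b were at least 2-fold lower and 0 were higher by as much, where 7.12% and 6.08% of all genes compared were. Others differed little, with elavl4 at -0.14, stmn2b at -0.13 and nefma at 0.01. The 100 table entries of the neuronal channel list summed to 363 and 249 FPKM, so the mutant to wild-type ratio of sums was 0.685 for these channels and 0.688 for the neuron markers. Each sum rests most on its abundant genes, so the nearness of these ratios does not show that the channels follow the markers gene by gene.

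**Figure D2:**
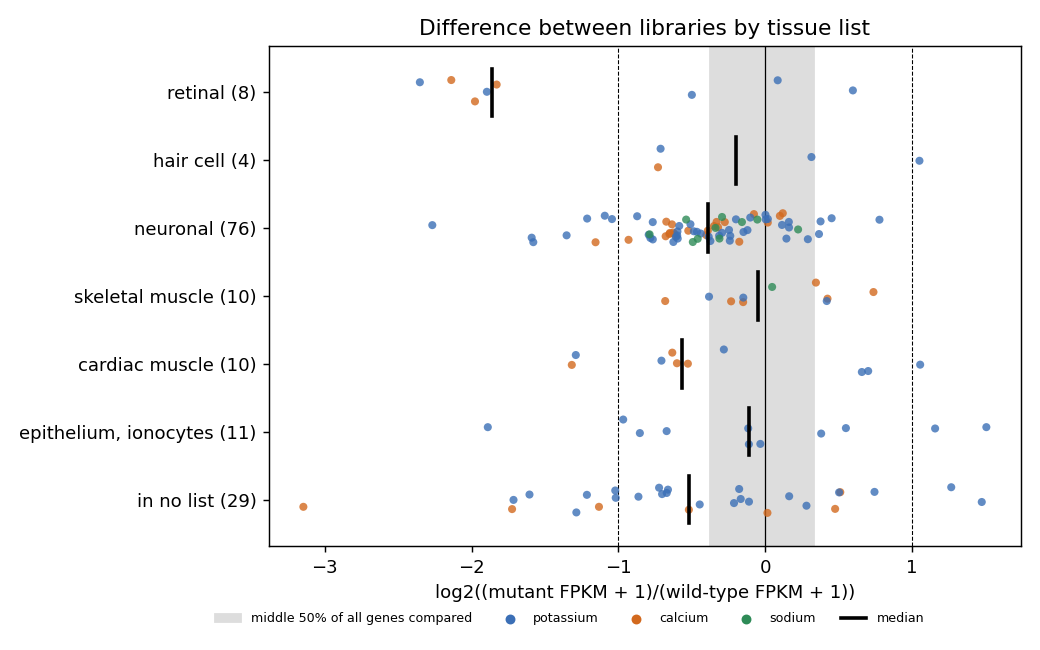
Each point is 1 ion channel gene, placed by its log2((mutant FPKM + 1)/(wild-type FPKM + 1)) and sorted by tissue list, with the number of genes in brackets, a black bar at the list median and a grey band for the interquartile range of all genes compared. The retinal median lies at -1.86 and the neuronal median at -0.39, while the skeletal muscle median lies at -0.05.

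Channels of neurons were lower by small amounts across most families. The neuronal list held 76 of the 148 genes, with a median of -0.39, 60 below 0, 8 lower by at least 2-fold and 0 higher by as much, so 68 lay within 2-fold. The share lower by at least 2-fold was 10.5%, near the 7.12% over all genes compared. Among its potassium channels, all 6 Kv3 genes (kcnc), which serve fast repetitive firing, lay below 0. Their levels were 7.45 and 4.59 FPKM for kcnc1a, and 9.83 and 6.15 FPKM for kcnc3a. Lower by more were kcnc2, at 4.82 and 1.51 FPKM, and kcnc1b, at 6.19 and 2.49 FPKM, both at shared loci. Kv4 genes (kcnd), which carry fast transient currents, stayed closer, with kcnd2 at 3.16 and 2.62 FPKM and kcnd3 at 3.99 and 4.51 FPKM.

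Kv1 genes (kcna), known for limiting axonal excitability, went to both sides, with 5 of 8 above 0. The level of kcna6 was 4.53 and 6.18 FPKM, and KCNA4 was at 1.14 and 1.76 FPKM. Against them, KCNA3 (1 of 2) was at 2.04 FPKM and listed at 0 in the mutant, and KCNA3 (2 of 2) was at 4.63 and 1.77 FPKM. Kv7 genes (kcnq), some of which give the M-current of neurons, had 3 on each side, with kcnq5a at 3.26 and 2.09 FPKM. Both BK channel genes lay below 0, with kcnma1a at 13.6 and 7.92 FPKM and kcnma1b at 3.19 and 0.806 FPKM. KCNU1, grouped with them in the family counts, was at 3.12 and 2.68 FPKM. Of the SK genes, KCNN2, which contributes to the pause after a spike, was at 6.90 and 1.64 FPKM, and kcnn3 was at 4.24 and 4.25 FPKM.

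Among the auxiliary potassium channel subunits, the calcium-binding KChIP genes (kcnip), partners of Kv4 channels, had the highest levels. The 4 copies of kcnip1 and kcnip3 were lower in the mutant. Levels were 12.3 and 6.77 FPKM for kcnip1a, 12.7 and 10.2 FPKM for kcnip1b, and 12.8 and 9.20 FPKM for kcnip3a. The second copy kcnip3b was at 6.39 and 1.46 FPKM, 4.39-fold lower, and shares its locus with an RNA gene listed at 0. KCNIP4 went the other way, at 4.47 and 8.38 FPKM, and KCNIP2 (1 of 2) was listed at 0 and then at 1.41 FPKM. Kv beta genes (kcnab) had 2 of 4 on each side.

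Calcium channel genes had a median of -0.52, with 8 of 42 (19.0%) lower by at least 2-fold and 0 higher by as much, against 7.12% and 6.08% of all genes compared. Of these lower genes, all but CACNA2D1 (3 of 3) passed the floor through the wild type only, so they could lie only below 0. Of all 1465 genes that passed in that way, 51.2% were lower by at least 2-fold. The count is thus a description of these values. The presynaptic P/Q- and N-type alpha genes were all lower by under 2-fold, with cacna1aa at 3.38 and 2.44 FPKM, cacna1ab at 2.14 and 1.18 FPKM and cacna1ba at 1.64 and 1.001 FPKM. All 3 T-type entries that passed the floor were lower. They were cacna1g, at 2.73 and 1.40 FPKM, and both cacna1ha entries, which have the same locus. The second cacna1ha entry was at 1.19 FPKM and listed at 0 in the mutant. Under the floor, cacna1hb at 0.218 and 0.429 FPKM and cacna1i at 0.0865 and 0.333 FPKM lay on the other side, at values too low to show a direction. Cytoplasmic beta subunits lay below 0 in 6 of 7 genes. The most abundant of them, cacnb4b, was at 20.2 and 12.5 FPKM, and cacnb2b, whose mammalian relative serves heart and retina, was at 3.53 and 0.818 FPKM. TARP gamma genes encode relatives of the muscle gamma subunit that mainly escort AMPA-type glutamate receptors to synapses. Of these 9 genes, 7 lay below 0, with cacng2a at 9.83 and 5.80 FPKM, cacng8b at 10.3 and 4.94 FPKM, cacng7a at 2.39 and 0.521 FPKM and cacng8a at 6.93 and 7.03 FPKM.

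The alpha2delta genes differed among themselves. CACNA2D1 (3 of 3), on chromosome 18, was at 6.30 and 1.21 FPKM, 5.21-fold lower. Further genes of that name lay on the other side, CACNA2D1 (2 of 3) at 1.26 and 2.14 FPKM and cacna2d1a at 6.46 and 9.64 FPKM. The cacna2d1 product is the target of gabapentin and is found in muscle as well as neurons. CACNA2D2 (2 of 3) and cacna2d3 were at 3.51 and 2.44 FPKM and at 2.88 and 2.68 FPKM.

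Sodium channel genes had a median of -0.31, as potassium channel genes did, with 0 of 11 at least 2-fold apart. With 6.08% of all genes that much higher and 7.12% lower, a count of 0 among 11 does not set them apart. All 11 were above 1 FPKM in both libraries. The alpha subunits, which carry the spike, were led by scn8aa at 7.29 and 5.03 FPKM, followed by the muscle gene scn4ab at 4.60 and 4.79 FPKM, scn1lab at 3.46 and 3.30 FPKM and scn8ab at 2.71 and 2.03 FPKM. Beta subunits, which are adhesion-like proteins that modify gating, were more abundant. The highest, scn3b, was at 21.1 and 11.8 FPKM, the largest difference of the 11 at -0.79. Below it were scn2b at 13.5 and 9.32 FPKM and scn4ba at 7.48 and 4.84 FPKM, and the lowest was scn4bb at 1.70 and 2.16 FPKM. Only scn4ab and scn4bb of the 11 were higher in the mutant library.

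**Figure D3:**
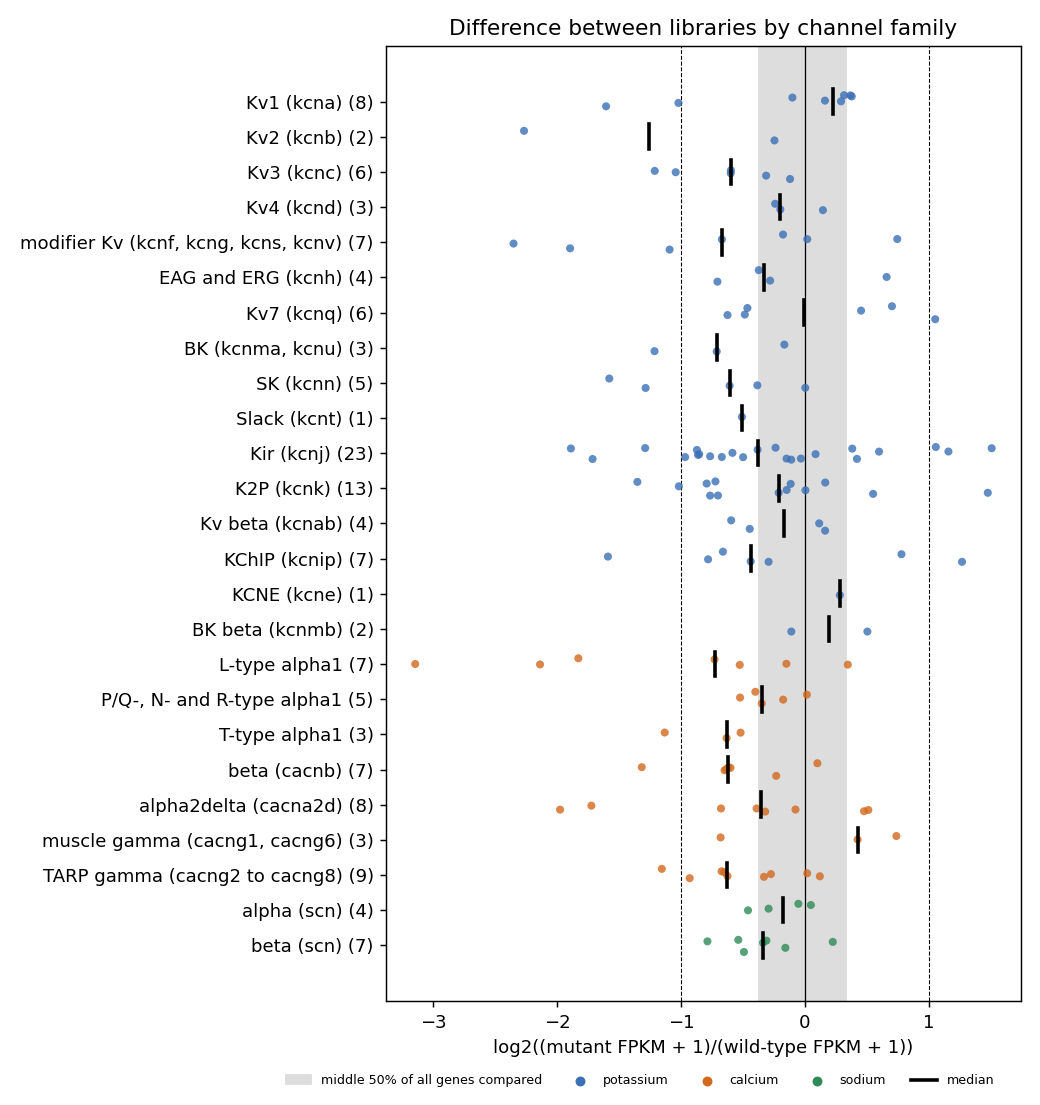
Log2((mutant FPKM + 1)/(wild-type FPKM + 1)) of each ion channel gene by channel family, with the number of genes in brackets, a black bar at the family median and a grey band for the interquartile range of all genes compared. The medians of Kv1, muscle gamma and the auxiliary KCNE and BK beta families lie above 0. Those of both sodium channel families lie within the grey band, and the L-type calcium channel family is the widest.

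Skeletal muscle channels lay on both sides of 0. The skeletal muscle list held 10 genes with a median of -0.05, 5 on each side of 0 and 0 at least 2-fold apart. With 6.08% of all genes compared that much higher and 7.12% lower, a count of 0 among 10 does not set them apart. Their quartiles were -0.21 and 0.40, against -0.37 and 0.33 over all genes compared. The gamma subunit cacng1, part of the calcium channel that triggers contraction, had the highest level of the 148 genes in the mutant library, at 19.9 and 33.9 FPKM, 1.70-fold higher. Its relatives cacng6a and cacng6b were at 11.7 and 16.03 FPKM and at 11.8 and 7.01 FPKM, in opposite directions. The beta subunit cacnb1 was at 13.8 and 11.6 FPKM. Inward rectifiers of muscle were at 5.27 and 4.65 FPKM for kcnj2a, 7.02 and 9.73 FPKM for kcnj11, an ATP-sensitive channel, and 7.28 and 5.36 FPKM for kcnj11l. The 15 skeletal muscle markers summed to 78514 and 87137 FPKM, 1.11-fold higher in the mutant, with none listed at 0.

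Cardiac channels were spread more widely, with a median of -0.56 over 10 genes at low levels. Lower were cacnb2b, cacnb2a at 4.61 and 2.70 FPKM, and kcnj8, a vascular and cardiac ATP-sensitive channel at 1.44 FPKM and listed at 0 in the mutant. KCNJ12 (2 of 2), an inward rectifier that symbol tables list as kcnj12b, was at 4.74 and 10.9 FPKM, 2.31-fold higher. Members of the ERG family, which repolarises the heart, were on both sides. Levels were 2.67 and 2.02 FPKM for kcnh6, 2.03 and 0.855 FPKM for KCNH2 (4 of 5), and 0.307 and 1.06 FPKM for KCNH2 (2 of 5). The channel gene kcnq1 was at 0.424 and 1.32 FPKM. Of these cardiac genes, cacnb2b, kcnj8 and KCNH2 (4 of 5) passed the floor through the wild type only, so they could lie only below 0. KCNH2 (2 of 5) and kcnq1 passed it through the mutant only, so they could lie only above 0. The spread and median of the list thus rest in part on sides that the floor fixed. Heart markers summed to 122 and 175 FPKM, 1.44-fold higher, with 2 of 8 below 0 and none listed at 0.

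Hair cell channels held 4 genes, with 2 lower in the mutant and 2 higher. Lower were cacna1da and kcnma1a, whose values are given above. Of the higher ones, KCNA10 (1 of 2) was at 0.854 and 1.31 FPKM. Hair cell markers summed to 243 and 115 FPKM, 2.11-fold lower, with all 6 that passed the floor below 0, lhfpl5a listed at 0 in both libraries and a cdh23 entry listed at 0 in 1 of them.

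Inward rectifiers of ionocytes and epithelia included the tandem kcnj1a cluster on chromosome 18 (47054619 to 47122032), whose mammalian relative secretes potassium in the kidney. Of its 6 genes, 5 were lower in the mutant. The most abundant in the wild type were kcnj1a.5 at 16.1 and 8.49 FPKM, kcnj1a.3 at 13.1 and 7.87 FPKM and kcnj1a.4 at 10.8 and 5.05 FPKM. Neighbours at the other end of the cluster lay on opposite sides, kcnj1a.1 at 3.57 and 0.233 FPKM and kcnj1a.2 at 1.80 and 6.97 FPKM, while kcnj1a.6 was at 9.62 and 8.84 FPKM. The locus of kcnj1a.1 is shared with another gene above 0. It also passed the floor through the wild type only, so it could lie only below 0. Summed over the cluster, levels were 55.1 and 37.5 FPKM. Tandem copies can share reads, and how reads were divided between them is not stated, so single values are less certain than the sum. KCNJ16 was at 0.528 and 2.41 FPKM, and the leak channel kcnk5b at 6.54 and 10.05 FPKM.

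**Figure D4:**
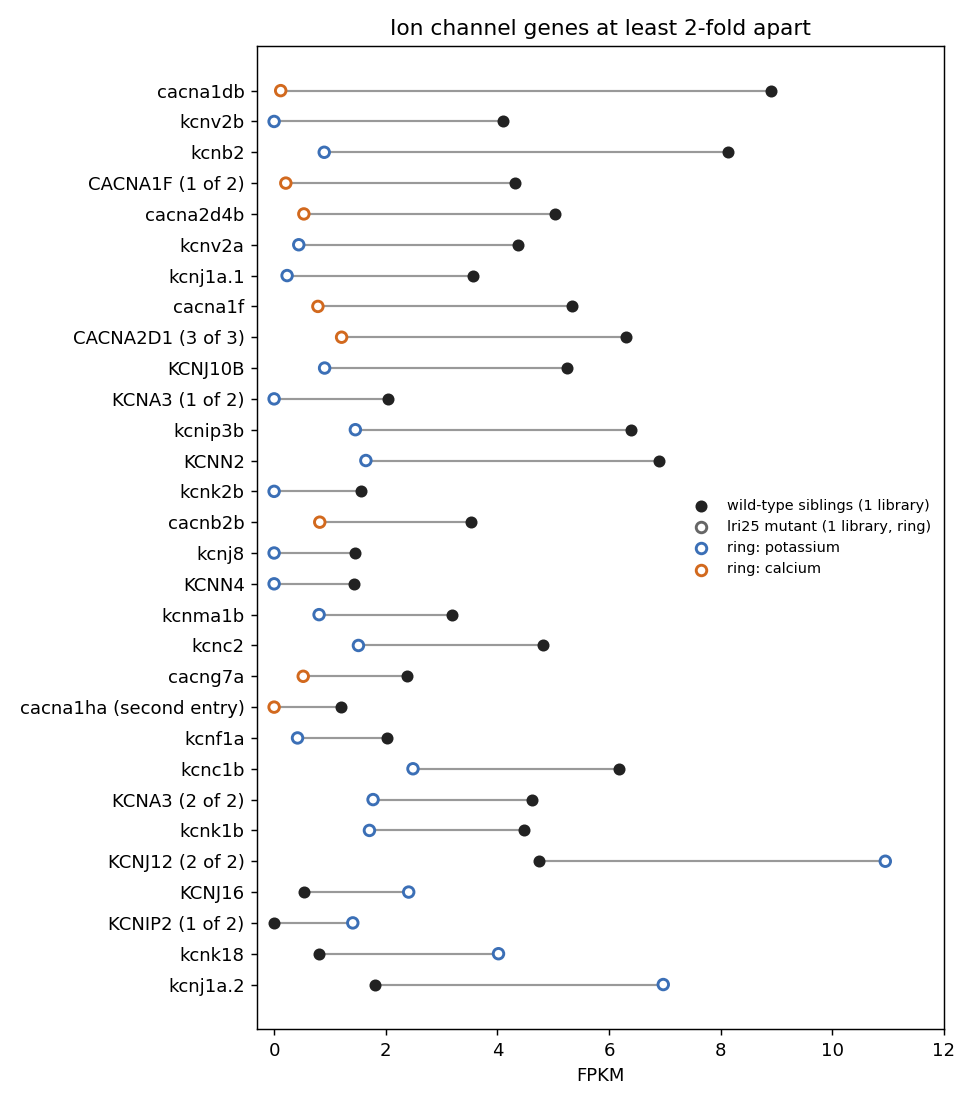
FPKM in the wild-type library (filled points) and the mutant library (rings) of 30 of the 31 ion channel genes at least 2-fold apart on the log2(FPKM + 1) scale, ordered by their difference. Most of the 25 lower genes end below 1 FPKM in the mutant, and KCNJ12 (2 of 2) is the most abundant of the higher ones drawn.

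Of the 25 genes at least 2-fold lower, 18 were under 1 FPKM in the mutant and 7 were at 1 FPKM or more in both libraries. Pore-forming potassium channel genes made up 16 of the 25, or 19.8% of the 81 such genes. That share was near the 16.9% of the 148 genes, and 7.12% of all genes compared were that much lower. Of the 25, those not yet described include leak channels, with kcnk1b at 4.48 and 1.71 FPKM and kcnk2b at 1.55 FPKM and listed at 0 in the mutant. The modifier subunit gene kcnf1a was at 2.03 and 0.419 FPKM. KCNN4, a calcium-activated channel of blood and epithelial cells in mammals, was at 1.44 FPKM and listed at 0 in the mutant. All 6 genes at least 2-fold higher encode potassium channels or their subunits. They made up 6.32% of the 95 potassium channel genes, near the 6.08% of all genes compared that were that much higher. Of the 6, 4 passed the floor through the mutant only, so these 4 could lie only above 0. Among the genes of the 6 above 0 in both libraries, kcnk18 had the largest plain ratio, at 0.804 and 4.02 FPKM, 5.00-fold higher. It encodes a leak channel of sensory neurons in mammals.

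Many zebrafish channel genes exist as pairs from the teleost genome duplication. In 28 pairs named with a final a and b, both copies were among the 148 genes. Both copies were lower in the mutant in 20 pairs and both higher in 0, and the copies lay on opposite sides in 8. With 72.3% of the 148 genes below 0, unrelated genes paired at random would also often both be lower. Whether copies are more alike than unrelated genes was not tested. The median gap between copies was 0.49, and in 5 pairs it reached 1, in cacna1d, cacng6, kcnf1, kcnip3 and kcnj10. Copies lay close together in some abundant pairs, such as cacng2a and cacng2b at -0.67 and -0.62. Paralogous copies can exchange reads where their sequences match, which would draw their values together or apart.

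**Figure D5:**
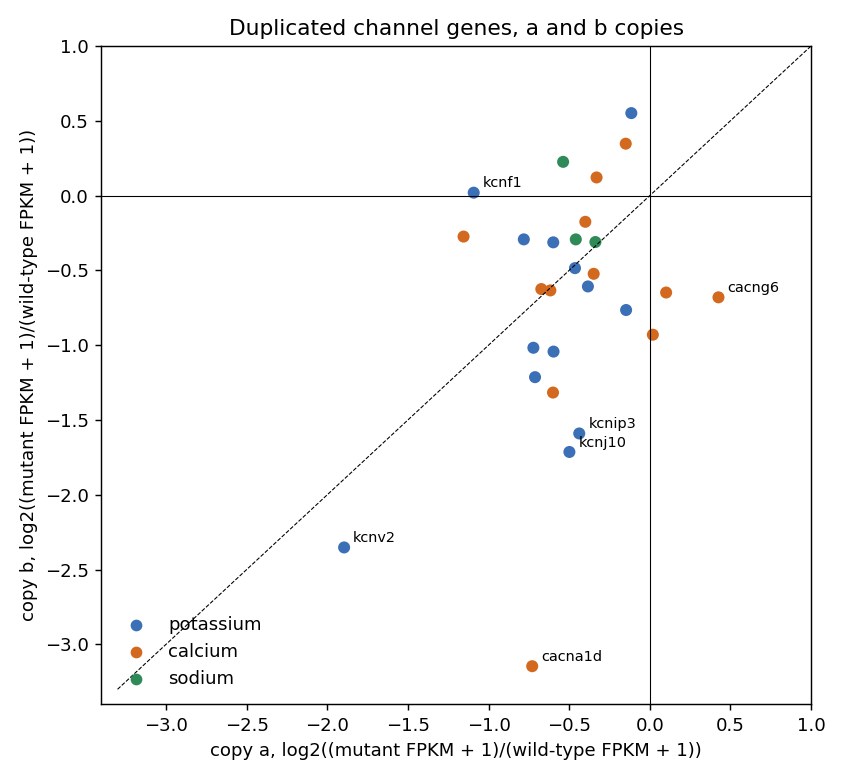
Each point is 1 pair of duplicated channel genes, with log2((mutant FPKM + 1)/(wild-type FPKM + 1)) of copy a on the horizontal axis and of copy b on the vertical axis, and the dashed line marks equal differences. Of the 28 pairs, 20 have both copies below 0, and cacna1d is the farthest from the dashed line.

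Channel partners and related channels outside the name rule were also examined. Of 47 such genes at 1 FPKM or more in at least 1 library, 15 were lower by at least 2-fold and 0 higher by as much, where 7.12% and 6.08% of all genes compared were, and the median was -0.44. Cyclic nucleotide-gated channels, which carry the light-controlled current of photoreceptors, made up 8 of the 15, out of 9 measured. These 8, like cabp4 and DPP10 below, passed the floor through the wild type only. They could therefore lie only below 0, and their count is a description of these values. Among the 8, cnga3a was at 9.82 and 0.113 FPKM, cnga3b at 3.01 and 0.156 FPKM, and cngb1a at 4.21 and 0.148 FPKM. CNGB3 (2 of 2) was at 11.2 FPKM and listed at 0 in the mutant. The calcium sensor cabp4, which tunes the calcium channel of the photoreceptor synapse, was at 9.99 FPKM and listed at 0 in the mutant, and its relatives cabp2a and cabp5b were at 11.0 and 1.63 FPKM and at 11.2 and 1.70 FPKM. DPP10, a Kv4 partner, was at 5.55 FPKM and listed at 0 in the mutant. In smaller groups, 0 of 4 hcn channel genes, 0 of 5 genes of the fgf12 to fgf14 sodium channel partners and 0 of 5 genes of the ryanodine receptors and stac3, which couple membrane voltage to calcium release in muscle, were at least 2-fold apart, counts too small to set against those background shares. The last 5 had a median of 0.10, and stac3 was at 23.3 and 26.03 FPKM.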

How the data were processed

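RNA of whole larvae was sequenced in 2 libraries, and the authors deposited 1 table with a value per gene and library. These values were read as FPKM per the file headers' layout, which does not name the unit. The deposited p-value and q-value columns compare the 2 libraries. Per the submitters' processing notes, CASAVA, Bowtie and build Zv9 were used, and the program behind the table is not named. The first identifier column is sorted apart from the rest, so the second was used. Of the 148 genes, 124 identifiers were found in a symbol table. Of these, 120 carried the printed symbol, ignoring case, copy suffixes and an a or b ending. That match therefore did not check which copy of a pair is a and which is b. Starts were raised by 1, since 19 of 19 mitochondrial loci with 1 gene then equalled RefSeq positions. A locus is shared with another gene for 34 of the 148 genes, and with another gene above 0 for 16. Strand is not stated.

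Differences were log2((mutant FPKM + 1)/(wild-type FPKM + 1)), called at 1 (2-fold), and folds of single genes are plain FPKM ratios. Computing used Python 3.11.15, pandas 2.3.3 and numpy 2.4.6, and the summary was tested on simulated data. Genes were named by rule: the retinal, hair cell and muscle lists, all sodium channels, the 12 largest differences in each direction and the 6 highest levels of potassium and of calcium channels, which gave 60 genes. Other genes were chosen after their values were seen. The genes and lists were chosen with earlier results of these data known. Just inside the floor were kcnj13 (second entry), kcnk10b, kcnh5b and kcnj14 at 1.02, 1.04, 1.06 and 1.06 FPKM. Just outside were cacna2d4a, scn12aa, KCNA2 (1 of 2) and kcnh2a at 0.997, 0.996, 0.993 and 0.964 FPKM. A few of these genes are counted in the totals but not reported singly here.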

Additional observations from a re-analysis of the deposited data

How the results depend on the processing

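No paired analysis was possible because each genotype has 1 library, and no library could be left out. With a pseudocount of 0.1, 11 of the 148 genes were higher and 39 lower by at least 2-fold, and the medians were -0.72 for calcium channels and -2.82 for the retinal list. With a pseudocount of 5, 0 were higher and 2 lower, and medians were -0.19 for all genes, -0.13 for potassium, -0.21 for calcium and -0.19 for the neuronal list. With a floor of 5 FPKM, 2 of 48 were higher and 9 lower, where 5.00% and 5.68% of all genes between 5 and 35 FPKM were. Medians with that floor were -0.57 for all, -0.65 for calcium and -0.60 for the neuronal list. The median of the 20 muscle genes, -0.19, reversed to 0.35 over the 9 left with that floor; the cause was not tested. Settings with no floor or without genes at a shared locus kept counts within 1.5 times and medians within the 95% order-statistic interval of the main value. That interval is taken over genes of 1 pair of libraries and is a loose limit for short lists. It ran from -2.35 to 0.60 for the retinal list. For the muscle list it ran from -0.60 to 0.42, which holds even the reversed median. Without genes at a shared locus, 17 of 114 were lower. A further 3 settings were chosen after seeing the data. Rescaling the mutant to a median ratio of 1 gave 6 higher and 25 lower of 148. Leaving out the retinal list gave 20 lower of 140, and leaving out genes listed at 0 gave 19 lower of 141. Except for the floor of 5 FPKM, no share over all genes is given at these other settings. Their counts therefore cannot be set against a background. Genes near 1 FPKM rest on few fragments, and no counting interval was computed.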

Other observations

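Of the 199 entries that matched by name, 51 were below 1 FPKM in both libraries, and 16 of those were listed at 0 in both. Above 0 in at least 1 library were 183 entries, of which 127 lay below 0 on the log2(FPKM + 1) scale, with a median difference of -0.29. Among those under the floor, neuronal potassium channels of the EAG family included kcnh4 at 0.841 and 0.460 FPKM, kcnh1a at 0.647 and 0.300 FPKM and kcnh3 at 0.722 and 0.615 FPKM. The sodium channel entry scn12aa, in the cardiac list, was at 0.867 and 0.996 FPKM, and scn4aa, the second muscle sodium channel gene, at 0.165 and 0.505 FPKM. KCNA10 (2 of 2), in the hair cell list, was at 0.730 FPKM in wild-type larvae and listed at 0 in the mutants. These genes were named after their values were seen, and values this low do not show a direction.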
